A study of Mus musculus with 6 samples.

Results

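The genes of the tumour necrosis factor (TNF), lymphotoxin and BAFF system were followed in ATAC-seq libraries of mouse blood leukocytes. ATAC-seq reports open chromatin as peaks, places where the Tn5 transposase cut DNA more often than around them. The 9 genes were a fixed list of 78252 annotated genes, chosen for their function: Tnf, Lta, Ltb, Tnfrsf1b, Tnfsf13b, Tnfsf13, Tnfrsf13b, Tnfrsf13c and Tnfrsf17. A peak was assigned to a gene when its summit, the highest point of the peak, lay in the gene body or within 3000 bp of an annotated start. Peaks of the libraries that overlapped were merged into regions, and 20 of the 62876 regions belonged to these genes. Every gene of the list had at least 1 region. The control group was 3 libraries from mice kept in normoxia. The HADA group was 3 libraries from mice in high-altitude de-acclimatization, that is, mice moved back to normoxia after weeks in a hypobaric hypoxia chamber. Per the methods of the study, both groups were male C57BL/6j mice, bought as young adults and carrying no engineered allele that the sources name. About 50000 unsorted leukocytes were taken for each library after lysis of the red cells per the methods, while the results of the study call the cells mononuclear, and the day of blood sampling for ATAC-seq was not given in the sources used here. Nothing in the labels ties a library to a single mouse, so the tests measure the spread between libraries only.

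TNF is an inflammatory cytokine released by activated macrophages, monocytes and T cells, and it acts through a broadly expressed receptor, Tnfrsf1a, and a receptor largely restricted to blood and endothelial cells, Tnfrsf1b (TNFR2). Lta and Ltb encode lymphotoxins, which lymphocytes use to organise lymphoid tissue, and their genes flank Tnf in a compact cluster within the major histocompatibility region. BAFF (Tnfsf13b) is made mainly by myeloid cells and keeps mature B cells alive through the BAFF receptor (Tnfrsf13c). APRIL (Tnfsf13) is its close relative. Both ligands bind TACI (Tnfrsf13b), found on B cells, and BCMA (Tnfrsf17), found on plasma cells.

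The 200 bases upstream of 6 gene starts are shown first, since the comparisons turn on whether peaks stood at these starts. They were read from the GRCm39 genome, 5′ to 3′ on the strand of the gene. Capitals mark matches to short motif letters searched on both strands. The 3 neighbours of the cluster come first (Tnf at chr17:35420984-35421183, minus strand; Lta at chr17:35424328-35424527, minus strand; Ltb at chr17:35413182-35413381, plus strand), then the BAFF receptor (chr15:82108581-82108780, minus strand), TACI (chr11:61017374-61017573, plus strand) and the ligand BAFF (chr8:10056267-10056466, plus strand).
Tnf: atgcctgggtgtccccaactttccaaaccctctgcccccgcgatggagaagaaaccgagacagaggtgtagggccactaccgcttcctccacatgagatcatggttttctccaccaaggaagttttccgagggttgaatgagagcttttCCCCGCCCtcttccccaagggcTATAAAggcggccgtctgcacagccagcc
Lta: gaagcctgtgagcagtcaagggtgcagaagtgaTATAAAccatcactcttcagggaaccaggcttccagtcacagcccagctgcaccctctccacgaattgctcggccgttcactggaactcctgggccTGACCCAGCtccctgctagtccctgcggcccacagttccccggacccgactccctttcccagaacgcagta
Ltb: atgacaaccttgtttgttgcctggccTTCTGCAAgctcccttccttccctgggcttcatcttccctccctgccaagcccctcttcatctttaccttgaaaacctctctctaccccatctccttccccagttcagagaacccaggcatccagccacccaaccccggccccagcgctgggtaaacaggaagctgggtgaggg
Tnfrsf13c: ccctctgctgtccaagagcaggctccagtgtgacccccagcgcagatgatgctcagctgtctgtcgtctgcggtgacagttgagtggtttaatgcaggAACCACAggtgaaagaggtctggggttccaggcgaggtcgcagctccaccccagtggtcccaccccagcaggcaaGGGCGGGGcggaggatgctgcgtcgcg
Tnfrsf13b: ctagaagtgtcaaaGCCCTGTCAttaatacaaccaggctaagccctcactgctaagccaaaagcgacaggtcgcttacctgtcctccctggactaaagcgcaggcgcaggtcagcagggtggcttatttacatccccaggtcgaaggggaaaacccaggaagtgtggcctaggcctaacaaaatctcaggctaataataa
Tnfsf13b: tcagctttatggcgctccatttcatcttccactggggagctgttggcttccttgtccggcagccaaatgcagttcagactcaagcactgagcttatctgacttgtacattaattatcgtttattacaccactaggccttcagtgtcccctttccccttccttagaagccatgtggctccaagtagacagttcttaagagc
In Tnf the capitals are SP1 letters (GGGCGGGG, here on the opposite strand) that begin 51 bp upstream of the start and a TATA match (TATAAA) that begins 29 bp upstream. In Lta the TATA letters lay 167 bp upstream, and NRF2 letters (TGAC and GC separated by any 3 bases) 71 bp upstream. Ltb held CEBP letters (TTGC and AA separated by any 2 bases, here on the opposite strand) 174 bp upstream, and no TATA match. Tnfrsf13c held RUNX letters (TGTGGTT) 102 bp and SP1 letters 27 bp upstream, in a stretch that an exon of the lncRNA Gm62282 also covers. Tnfrsf13b held NRF2 letters 186 bp upstream, and the Tnfsf13b stretch held none of the 12 motifs. Among 21757 promoters of the same length, SP1 letters were in 13.2%, TATA in 10.1%, CEBP in 7.86%, NRF2 in 7.83% and RUNX in 3.60%. The other motifs searched, with their shares, were NF-kB (GGG and TTCC separated by any 3 bases, 3.69%), AP-1 (TGANTCA, 5.16%), ETS (CCGGAAGT, 1.93%), PU.1 (GAGGAAGT, 1.81%), EBF (TCCC and GGGA separated by any 2 bases, 0.689%), the octamer (ATGCAAAT, 1.3%) and EGR (GCGTGGGCG, 0.386%), and none of these 7 was in the 6 stretches shown. NF-kB letters were in the stretch before Tnfrsf17, 112 bp upstream of its start. The 50 bases at each of the 20 summits occurred once in the genome, so reads there had 1 exact place.

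The height of a peak was its summit pileup, the number of fragments stacked at the summit. The libraries held 34045 to 45799 peaks on the main chromosomes, and their genome-wide background pileup, which stands for depth, ranged from 1.69 to 2.05 over the control and from 1.99 to 2.34 over the HADA libraries. Library control 3 stood apart from the other controls: it had a peak at 5 of 10 B cell marker genes, against 10 of 10 in each of the other 5 libraries. Height over background was summed over the called peaks of each marker list, so a region with no peak counted as 0. For B cell markers the sum ranged from 52.5 to 599 over the control libraries and from 1640 to 1712 over the HADA libraries. Only 7 of the 50 B cell marker regions had a peak in all 6 libraries, so this sum mixes calling with height. For neutrophil markers the sum ranged from 327 to 891 and from 155 to 302. For T cell markers it was 425 to 595 and 784 to 856, and for monocyte markers 404 to 527 and 315 to 417. Markers of T cells, monocytes, NK cells and plasma cells had peaks in every library, while Camp of the neutrophil list, Jchain, Klrk1 and Gp9, Hba-a1 and Alas2 of the platelet and erythroid list had none. Because the cells were unsorted, a change in the number of cells of a type and a change in the openness of each cell cannot be told apart in these data.

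Heights were compared in the 23970 regions that had a peak in every library, with each library centred on its median region, with limma and Benjamini-Hochberg adjustment over all of them. In this comparison 4318 regions (18%) were higher in HADA and 5853 (24.4%) lower, 42.4% in either direction. Division by library background in place of centring moved all regions up by 0.37 (log2) and gave 7454 higher and 4427 lower. In that fit limma gave every region the same SE (0.293), so its calls follow the size of the difference alone. Quantile normalization gave 5438 and 4113. All differences below are from the centred fit, and are thus relative to that shift. Of the 20 member regions, 8 entered the fit: 2 were higher in HADA, 2 lower, and 4 were not called. The median log2 difference of the 8 was −0.11, beside −0.04 over all regions tested. The called members were the BAFF receptor and TACI, both higher, and 2 regions of Tnfrsf1b, both lower. The shares of members called were close to those of all regions, so the counts themselves set the list apart in neither direction.

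**Figure D1:**
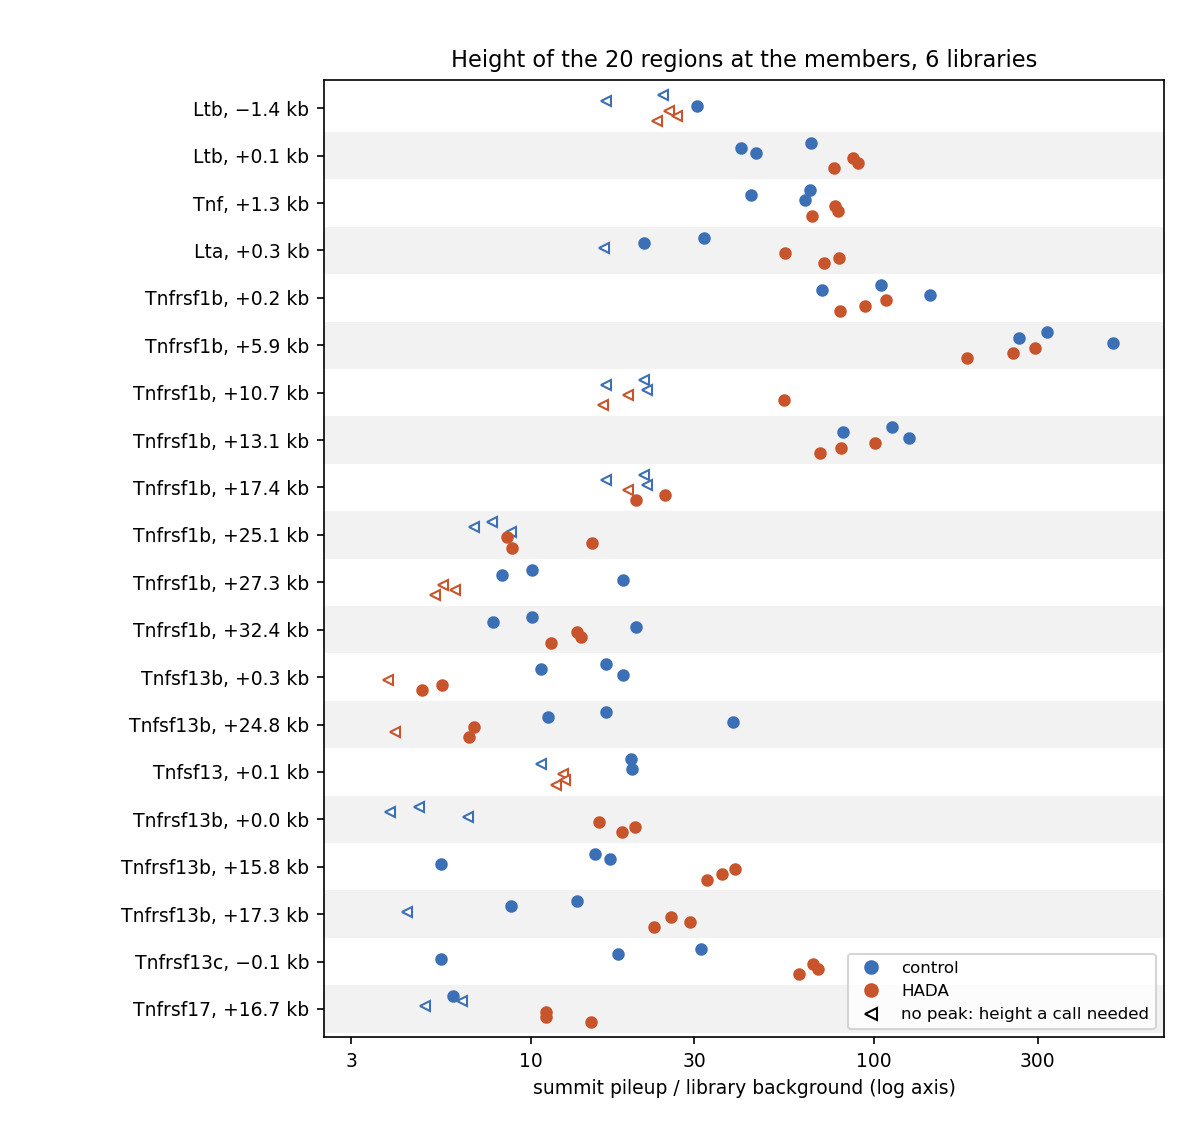
Height of the 20 regions at the 9 genes in each of the 3 control and 3 HADA libraries, as summit pileup over the library's genome-wide background on a log axis, with the distance of the tallest summit from the gene start beside each gene. Open triangles mark libraries with no called peak and stand at the height a call would have needed at the background of the nearest peak. HADA points lie to the right at Tnfrsf13b and Tnfrsf13c and to the left at Tnfsf13b, and the tallest region is in Tnfrsf1b.

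The number of peaks at the 9 genes was similar per library. Control libraries held 15, 13 and 13 such peaks and HADA libraries 14, 16 and 16. Per 10000 peaks of the library, this was 3.53 ± 0.34 (SD, n = 3) in control and 3.43 ± 0.25 (SD, n = 3) in HADA, and the groups overlapped (two-sided exact permutation test, p = 0.7; the smallest p that 3 against 3 libraries allow is 0.1). Counting only summits within 3000 bp of a start, control libraries held 10, 9 and 9 peaks and HADA libraries 9, 9 and 10. The rate per 10000 was then 2.41 ± 0.23 (SD, n = 3) in control and 2.08 ± 0.09 (SD, n = 3) in HADA, a difference that comes from the peak totals of the libraries and not from the members' own counts. Of all 20 regions, 2 had a peak in every HADA and no control library, beside 7.01% of all regions, and 1 had a peak in every control and no HADA library, beside 1.88%. Another 2 were called in a single library.

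The cluster of Ltb, Tnf and Lta lies on chromosome 17, with Tnf and Lta read on the minus strand and Ltb on the plus strand. Tnf and Ltb had a peak in every library, and Lta in 5 of 6. The values of the 3 genes differed. In the centred fit the Tnf log2 difference was 0.01 and that of Ltb 0.39, and neither was called. With division by library background they were 0.38 and 0.76, and only that of Ltb was called. The Lta region was taller in each HADA library than in each control library that had it.

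The Tnf region (35419374 to 35421286) had a summit pileup of 110, 90 and 115 in control and 180, 157 and 150 in HADA. The raw pileups of the groups did not overlap, but relative to the median region of their library the heights did. The log2 difference was 0.01 ± 0.18 (SE, adjusted p = 0.97). The summit lay in an intron, 1189 to 1280 bp inside the gene, in all 6 libraries. In 5 libraries the peak also covered the start of the gene. In HADA 3 it began 336 bp inside.

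The Lta region (35423503 to 35424514) had a pileup of 54 and 44 in control 1 and 2, no peak in control 3, and 129, 158 and 163 in HADA. Each HADA value was more than any control value, also after division by library background (32.0 and 21.4 in control, 55.1, 79.3 and 71.7 in HADA). By the latter measure HADA was wholly taller in 42.6% of all regions called in both groups, so this separation was common. The summits lay 257 to 519 bp inside the gene, the tallest in an intron. Fitted without control 3, on the 5 libraries with a peak, the log2 difference was 1.00 ± 0.21 (SE, limma, adjusted p = 0.013). In control 3 a call at the background of the nearest peak would have needed a pileup of 30, so a lower peak there would not have been called. With control 3 set to that pileup the log2 difference was 1.21 ± 0.24 (SE, adjusted p = 0.010), and with control 3 set to the lowest pileup called anywhere in its list it was 1.80 ± 0.59 (SE, adjusted p = 0.039). The tallest Lta summit was at −2999 bp from the Tnf start, just inside the window of 3000 bp, so the rule gave this region to both genes.

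The Ltb region (35412957 to 35415075) had a pileup of 111, 84 and 83 in control and 203, 179 and 174 in HADA. The centred heights of the groups did not overlap. The log2 difference was 0.39 ± 0.16 (SE) and missed the threshold (adjusted p = 0.088). Division by library background, which adds the common shift, gave 0.76 and a call (limma, adjusted p = 0.024). Regions whose groups did not overlap with HADA higher made up 29.4% of all regions tested, and those with HADA lower 31.3%, so this separation was common.

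The place of the Ltb summit differed between the groups. The highest point lay 1271, 1239 and 1223 bp inside the gene in the 3 control libraries, and 90, 96 and 96 bp inside it in the 3 HADA libraries. The called peaks themselves were alike: each covered the start and reached 1691 to 1693 bp inside the gene, and they were 1930 to 1977 bp wide in control and 2077 to 2119 bp wide in HADA. The called peak of every library thus covered both places, and the heights above were taken at different places in the 2 groups. A separation of all summits by group with means at least 1000 bp apart was found in 62 of the 23970 regions (0.259%). This share is over regions of every width, and those narrower than 1000 bp could not show such a shift. It therefore does not tell how rare the shift is among regions as wide as this one. The lncRNA Gm65873, read on the opposite strand, covers both places. A further Ltb region, at −1386 bp from the start, was called in control 3 alone, with a pileup of 56. Calls in the other libraries would have needed 34 to 59 there.

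Ratios within a library do not depend on the scaling between libraries. The log2 ratio of Ltb over Tnf height was 0.013, −0.098 and −0.466 in control and 0.173, 0.188 and 0.213 in HADA. The HADA ratios all lay above the control ratios, by 0.375 on average (two-sided exact permutation test, p = 0.1, the smallest possible). The log2 ratio of Lta over Tnf was −1.013 and −1.016 in the 2 control libraries with an Lta peak, and −0.477, 0.009 and 0.119 in HADA. This was a mean difference of 0.898 (exact permutation test, p = 0.2; smallest possible 0.1). Ltb over Lta was 1.026 and 0.918 in control and 0.650, 0.179 and 0.094 in HADA, a mean difference of −0.664 (exact permutation test, p = 0.2). In control the Lta peak was thus about 1 log2 unit lower than those of its neighbours, and in HADA 2 and HADA 3 it was within 0.2 log2 units of both. None of these 3 ratio tests could reach 0.05 at this number of libraries, and each p adjusted over the 3 ratios was 0.2.

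**Figure D2:**
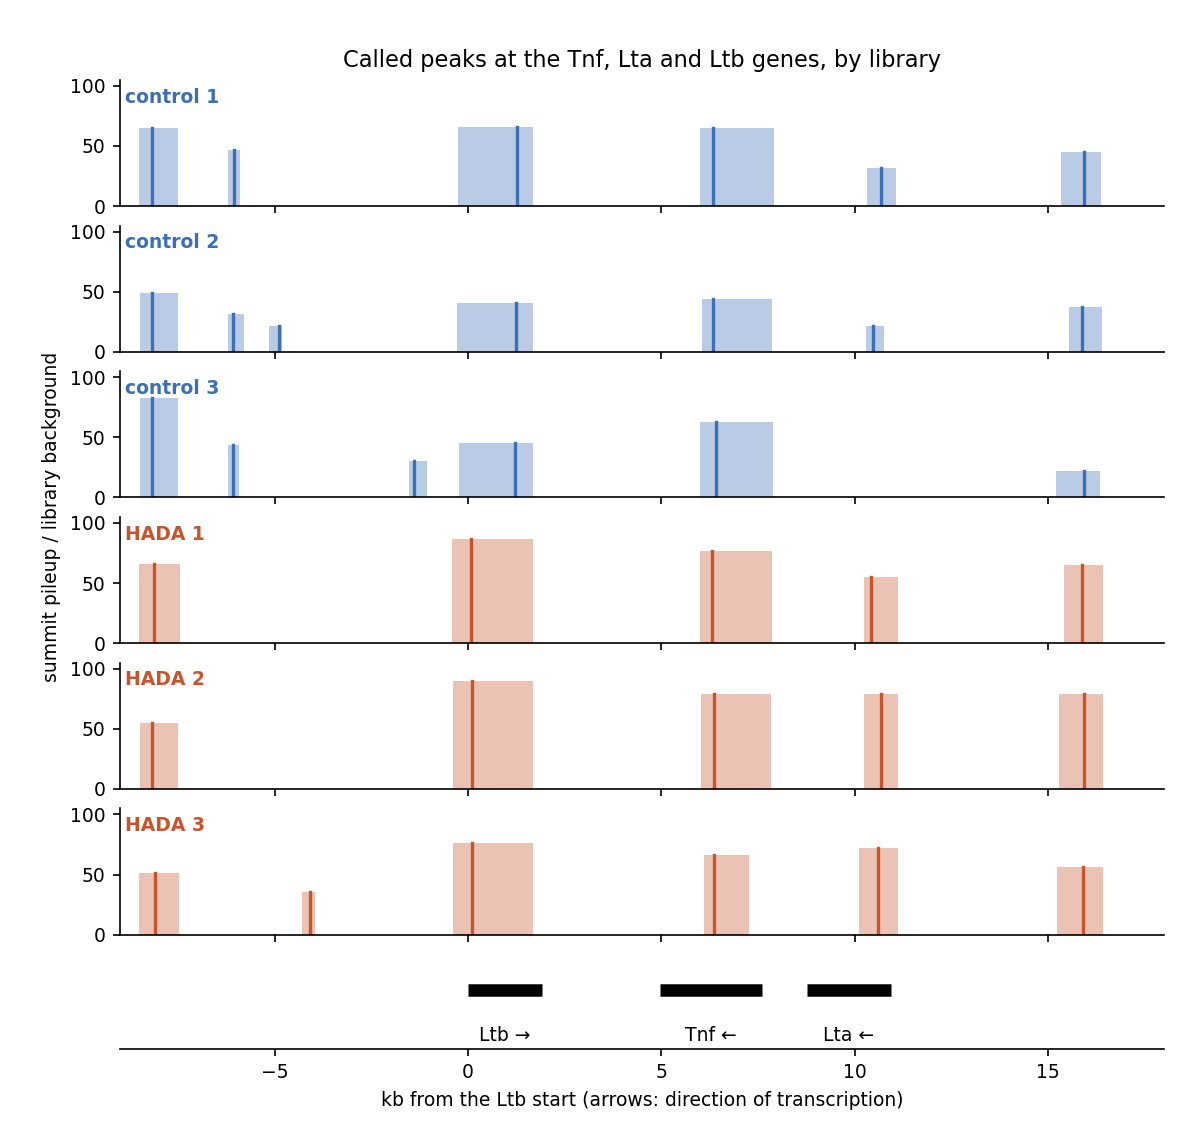
Called peaks around Ltb, Tnf and Lta in each library, with distance from the Ltb start in kb. Each box spans a called peak and is drawn to the height of its summit over library background, the line marks the summit, and black bars are the genes. The Ltb summit stands at the start in the HADA libraries and 1223 to 1271 bp inside the gene in control, and the Lta peak is absent from control 3.

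Tnfrsf1b, the gene of TNFR2, held 8 of the 20 regions along chromosome 4, more than any other gene of the list. Their tallest summits lay from 203 to 32440 bp inside the gene. Of 4 regions with a peak in all libraries, 2 were lower in HADA and 2 were not called, with a median log2 difference of −0.61.

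The tallest region of the list stood 5905 bp inside Tnfrsf1b, in an intron (144966556 to 144968148). The 151 bases around its summit (GRCm39, chr4:144967497-144967647, minus strand) held none of the 12 motifs and are shown because this was the tallest peak of the list.
Tnfrsf1b: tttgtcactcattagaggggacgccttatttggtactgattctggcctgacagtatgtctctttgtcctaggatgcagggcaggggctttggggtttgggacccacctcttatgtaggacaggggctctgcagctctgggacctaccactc
Its pileup was 538, 543 and 909 in control and 690, 506 and 425 in HADA. It was taller than 99.3% of all regions tested. The raw pileups overlapped, while the centred heights did not. The log2 difference was −0.90 ± 0.29 (SE, adjusted p = 0.038), a 1.86-fold lower height. Control 3 was the tallest of all libraries here. Without control 3 the difference was −0.63 (adjusted p = 0.040).

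A region 13125 bp inside the gene (144959941 to 144960808) had a pileup of 191, 167 and 231 in control and 235, 160 and 158 in HADA. The log2 difference was −0.72 ± 0.22 (SE, adjusted p = 0.031), a 1.65-fold lower height. For the tallest region and this one, division by library background, which adds the common shift, gave −0.53 and −0.35 and no call, while quantile normalization kept both calls (−0.57 and −0.65, adjusted p = 0.036 and 0.018). Without HADA 1, HADA 2 or HADA 3 the differences were −0.73 to −1.01 and −0.61 to −0.83, with adjusted p-values of 0.053 to 0.13, in fits that also called fewer of all regions.

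The region at the Tnfrsf1b start (144972468 to 144973810) had a pileup of 177, 145 and 267 in control and 253, 188 and 181 in HADA. Its log2 difference was −0.51 ± 0.27 (SE, adjusted p = 0.17), and the groups overlapped. The lncRNA Gm68886 also covers its summit. The region farthest inside, at 32440 bp in an exon, had a pileup of 17, 16 and 37 in control and 32, 28 and 26 in HADA (log2 difference −0.23 ± 0.35, SE; adjusted p = 0.61). Its sign turned under quantile normalization (0.15), with division by library background (0.14) and without control 3 (0.16). It also turned by ranks of the authors' fold (0.45 on the rank scale), and none of these gave a call.

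Between these, 2 weak intronic regions of Tnfrsf1b were called in 1 group only, and they did not overlap. The region 27258 bp inside (144945978 to 144946507) had a pileup of 17, 17 and 34 in control and no peak in HADA. The region 25075 bp inside (144947930 to 144948713) had a pileup of 20, 30 and 20 in HADA and no peak in control. A call in the control libraries would have needed 13 to 16 there, so the HADA values stood little above the limit. At the control region a call in HADA would have needed 12 to 13. Neither region has a height in both groups, so no test was read. The last 2 regions, 17376 and 10675 bp inside, had peaks in HADA 2 and 3 only (49 and 46) and in HADA 2 only (109). Calls in the libraries without a peak would have needed 34 to 45 at both.

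BAFF and APRIL, the ligands, held 3 regions, and none had a peak in all 6 libraries. Their receptors held 5 regions, and 2 of these were called in every library. Divided by library background, each called control peak at both BAFF regions was taller than each called HADA peak there, and the reverse held at the 4 receptor regions called in both groups. Measured the same way over all regions called in both groups, control was wholly taller in 23.5% and HADA in 42.6%, and no test was made over the groups of genes.

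The start of Tnfsf13b (chromosome 8, 10056348 to 10057541) had a pileup of 28, 22 and 34 in control, no peak in HADA 1, and 11 in HADA 2 and HADA 3. The groups did not overlap. A call in HADA 1 would have needed a pileup of 9. With HADA 1 set to that limit the log2 difference was −1.96 ± 0.26 (SE, adjusted p = 0.0042). Fitted without HADA 1, on the 5 libraries with a peak, it was −1.79 ± 0.28 (SE, limma, adjusted p = 0.017). The summits were 18 to 266 bp inside the gene, the tallest in an exon. The second region lay 24794 bp inside the gene (10080561 to 10081666), 57 bp upstream of an internal annotated start. Its pileup was 28, 23 and 71 in control, 16 and 15 in HADA 1 and HADA 3, and HADA 2 had no peak. With HADA 2 at its limit of 8, the log2 difference was −2.07 ± 0.46 (SE, adjusted p = 0.014). Without HADA 2 it was −1.82 ± 0.50 (SE, limma, adjusted p = 0.051), which missed the threshold.

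Tnfsf13 had a single region, at its start (chromosome 11, 69576304 to 69576893). It had a pileup of 33 in control 1 and 36 in control 3. Control 2 and all HADA libraries had no peak. A call would have needed 22 in control 2 and 25 to 29 in HADA at the background of the nearest peak, so a peak somewhat lower than in control could have been missed. The genes Tnfsfm13 and Tnfsf13os share this summit, and the signal cannot be divided among them.

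The start of Tnfrsf13c, the BAFF receptor, had the largest difference of the 8 member regions with a peak in all libraries (chromosome 15, 82108223 to 82109412). Its pileup was 53, 37 and 10 in control and 156, 137 and 138 in HADA. All HADA libraries were above all control libraries, and control 3 was the lowest. The log2 difference was 1.74 ± 0.47 (SE, adjusted p = 0.021), a 3.33-fold higher height. A difference as large or larger in this direction was found in 71 of the 23970 regions (0.296%). Without control 3 it was 1.07 (adjusted p = 0.0074). The summit lay 89 to 219 bp upstream of the gene start, within the stretch printed above in all libraries but control 3, where it was 219 bp upstream. The lncRNA Gm62282 runs the other way across this summit.

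Tnfrsf13b, the gene of TACI, had 3 regions on chromosome 11. At its start (61017280 to 61017994) the HADA libraries had a pileup of 37, 40 and 42, and no control library had a peak. Calls in control would have needed 8 to 12. With no measured control height, no test was read here. Its summits were within 37 bp of the gene start, at the end of the bases printed above or just past it.

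The second TACI region lay 15820 bp inside the gene, 69 bp from an internal annotated start (61033145 to 61034076). It had a pileup of 26, 35 and 10 in control and 92, 72 and 74 in HADA. The log2 difference was 1.24 ± 0.35 (SE, adjusted p = 0.026), a 2.36-fold higher height. In control 3 the summit was 16280 bp inside the gene, against 15751 to 15820 bp in the other libraries, so this low peak was a different point of the merged region. Without control 3 the difference was 0.76 (adjusted p = 0.019). The third TACI region, 17281 bp inside (61034246 to 61035117), had a pileup of 23 and 18 in control 1 and 2, no peak in control 3, and 60, 58 and 52 in HADA. With control 3 at its limit of 8 the log2 difference was 1.23 ± 0.31 (SE, adjusted p = 0.019). Without control 3 it was 0.83 ± 0.16 (SE, limma, adjusted p = 0.011).

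Tnfrsf17, the gene of BCMA, had no peak at its start in any library. Its only region was in an intron 16748 bp inside (chromosome 16, 11134362 to 11135721). The pileup was 10 in control 1 and 26, 22 and 34 in HADA, and control 2 and 3 had no peak. Calls there would have needed 13 and 9. With 2 of 3 control heights absent, no test was read here.

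Counted over all 16 member regions with a peak in at least 3 libraries, 7 were higher and 5 lower with absent peaks at the lowest pileup called, beside 22.4% and 23% of 44013 regions. With absent peaks at the limit set by the nearest peak, 5 were higher and 5 lower, beside 18.1% and 22.7%. These counts support nothing about the members. They hold regions in which every value of 1 group was filled in. Under both fills these were the Tnfrsf13b start among the higher and the Tnfrsf1b region 27258 bp inside among the lower. At the lowest pileup called, the Tnfrsf1b region 25075 bp inside was also among the higher.

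The calls did not hold under every measure. Ranked by the authors' fold over local background in place of height, no member region was called, beside 6.57% of regions higher and 4.79% lower, and 2 higher and 1 lower had an unadjusted p under 0.05 in limma. The adjusted p was 0.068 for the intronic TACI region and 0.12 for the BAFF receptor start, and the tallest Tnfrsf1b region turned to 0.0583 on the rank scale (adjusted p = 0.78). The local background itself differed there: 6.73, 5.72 and 1.83 at the BAFF receptor start in control against 18.5, 16.5 and 17.9 in HADA. Without HADA 1, HADA 2 or HADA 3 the BAFF receptor and TACI regions kept their direction, with adjusted p-values of 0.053 to 0.076.

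Markers of whole cell types moved with these results. All 7 tested regions of B cell marker genes were higher in HADA, with a median log2 difference of 1.94, while 7 of 8 neutrophil regions and 11 of 13 monocyte regions were lower, with medians of −1.61 and −1.09. The region of Ms4a6c, of the monocyte list, was higher (1.02). Pax5, a transcription factor that defines B cells, had the largest B cell difference called (2.07). S100a8, a neutrophil alarmin, had the largest neutrophil difference called (−2.27), and Itgam, an integrin of myeloid cells, the largest of the monocyte list (−1.90). Of 14 T cell regions 4 were higher and none lower (median 0.44), with the largest called difference at Lck (0.90), and of 13 housekeeping regions 1 was higher and 1 lower (median −0.22). For plasma cells, 2 of 6 regions were higher and none lower, both of them at Irf4, which B cells also use. The 2 tested NK cell regions were not called. Of 3 platelet and erythroid regions 2 were higher.

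**Figure D3:**
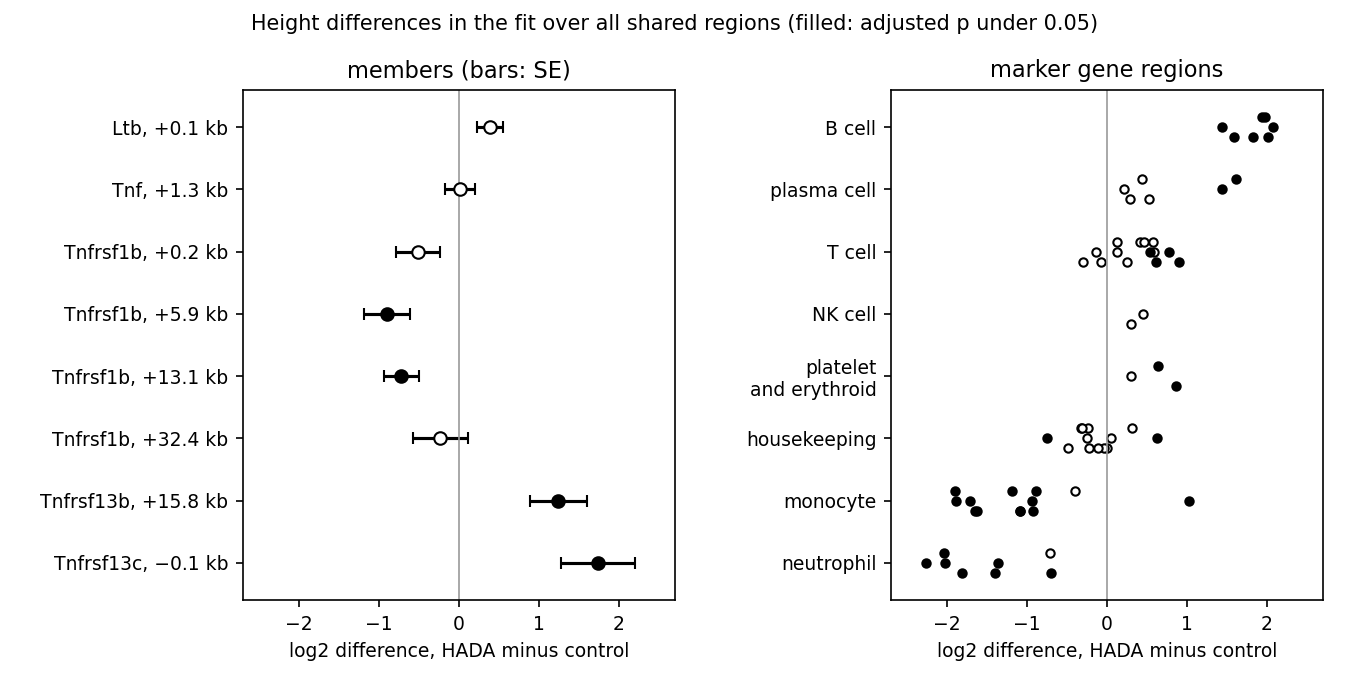
Log2 difference in centred height between HADA and control for the 8 member regions with a peak in all libraries (left; bars are SE) and for every tested region of the marker lists (right), with filled points for adjusted p under 0.05. The BAFF receptor lies within the range of the B cell marker regions and TACI just below it, while Tnf lies at 0.01 and Ltb at 0.39.

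Set against the mean of each marker list within a library, the members gave differences that depended on the list, and these are values with no test. The BAFF receptor start was 0.19 log2 units below the mean B cell marker region in control (mean of −0.115, −0.055 and −0.406) and 0.29 below it in HADA (mean of −0.278, −0.286 and −0.308). Its HADA minus control difference was thus −0.10 against B cell markers, but 1.39 against T cell, 2.84 against monocyte and 3.28 against neutrophil markers. For the intronic TACI region the 4 differences, in the same order, were −0.59, 0.89, 2.34 and 2.78. For Ltb they were −1.45, 0.04, 1.49 and 1.92, and for Tnf −1.82, −0.34, 1.11 and 1.55. For the tallest Tnfrsf1b region they were −2.73, −1.24, 0.20 and 0.64. The part of cell type shares in the differences of the members was not tested.

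**Figure D4:**
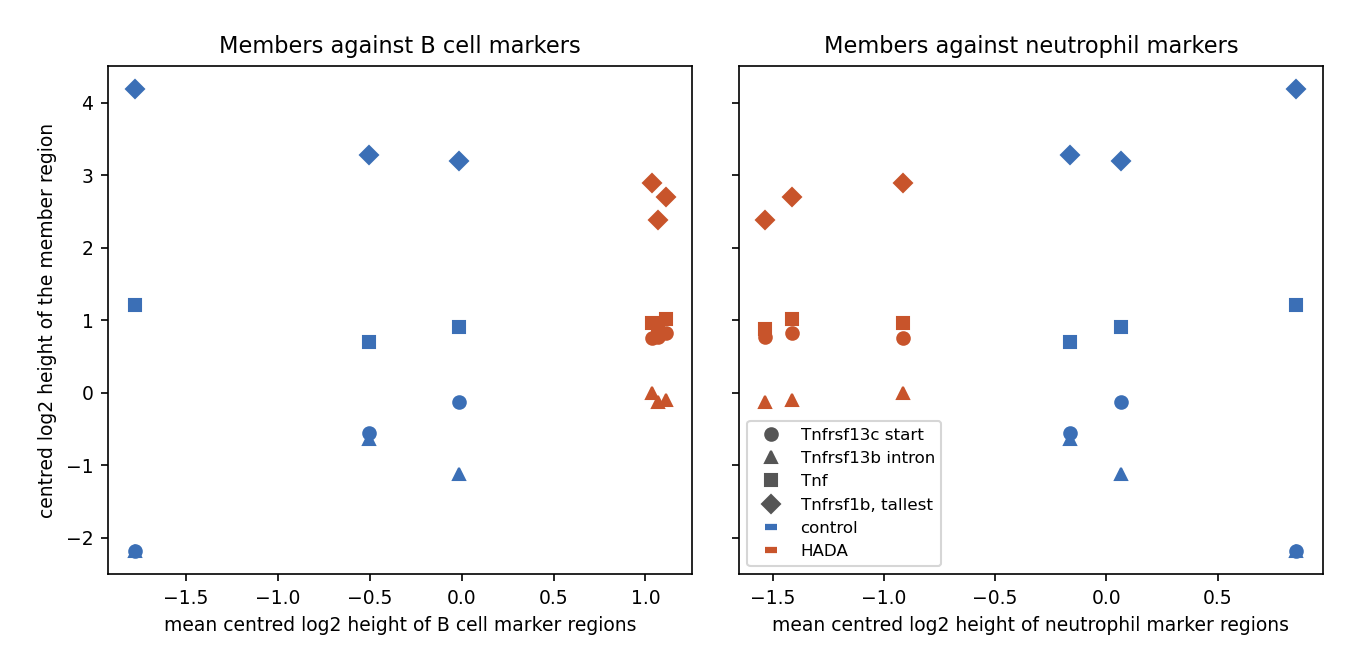
Centred log2 height of 4 member regions against the mean centred log2 height of B cell marker regions (left) and neutrophil marker regions (right), 1 point for each of 6 libraries. The BAFF receptor and TACI regions, like the B cell markers, are higher in every HADA library than in every control library. Within a group TACI does not follow the B cell markers. The tallest Tnfrsf1b region is highest in control 3, and Tnf stays between 0.70 and 1.21 throughout.

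The wider TNF superfamily was followed in lists made by role. Their counts are to be read beside the 18% of all tested regions that were higher and the 24.4% that were lower, and no list was tested against that share. The 20 other receptor genes, 17 with a peak, held 20 tested regions, of which 4 were higher and 7 lower in HADA. Some genes held several of these regions and others none. The largest called differences were at Tnfrsf1a, the other TNF receptor, with −2.004 ± 0.361 and −1.72 ± 0.32 (SE, adjusted p = 0.0092 and 0.0095), and at Ltbr, the lymphotoxin β receptor, with −1.53 ± 0.28 (SE, adjusted p = 0.0092). The pileup of the taller Tnfrsf1a region was 231, 199 and 360 in control and 181, 103 and 89 in HADA. Edar, Tnfrsf11b and Tnfrsf4 had no peak.

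The 13 other ligand genes, 11 with a peak, held 6 tested regions, of which 3 were higher and 1 lower. Tnfsf18, the ligand of GITR, differed by 1.33 ± 0.26, and Tnfsf8, the ligand of CD30, by 1.09 ± 0.23 (SE, adjusted p = 0.010 and 0.011). Tnfsf12, which encodes TWEAK and lies beside Tnfsf13, was lower, with −0.91 ± 0.25 (SE, adjusted p = 0.023). Cd70 and Tnfsf15 had no peak.

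Downstream of the receptors, 25 genes of adaptors, kinases and NF-kB factors held 45 tested regions, of which 5 were higher and 5 lower (median −0.02), both smaller shares than among all regions. A pair of regions of Cflar, an inhibitor of caspase activation, were lower, with −2.13 ± 0.24 and −1.48 ± 0.20 (SE, adjusted p = 0.0067 and 0.0078), and Traf5, an adaptor, was higher, with 1.53 ± 0.31 (SE, adjusted p = 0.011). Of 8 tested regions at sheddases and their regulators, which release TNF family proteins from the cell surface, 2 were lower and none higher, and the share lower was close to that of all regions. These were at Rhbdf2, a partner of the TNF-cleaving enzyme, with −1.30 ± 0.30, and at Furin, which processes BAFF and APRIL, with −1.28 ± 0.24 (SE, adjusted p = 0.014 and 0.0094).

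The genes beside the cluster held 6 tested regions, of which 2 were higher and none lower. Of all 13 regions of these genes, 1 had a peak in every control and no HADA library, beside 1.88% of all regions. Nfkbil1 was higher by 1.17 ± 0.23 and Aif1 by 0.88 ± 0.19 (SE, adjusted p = 0.011 and 0.012). These 2 genes lie on either side of the cluster. By ranks of the authors' fold, Nfkbil1 (adjusted p = 0.033), Aif1 (0.033), Tnfsf8 (0.033) and the larger Cflar difference (0.025) stayed called, while the other superfamily regions named here did not. The adjusted p was then 0.12 and 0.92 at Tnfrsf1a, 0.14 at Ltbr, 0.31 at Traf5, 0.11 at Tnfsf18, 0.57 at Tnfsf12, 0.079 at the other Cflar region, 0.061 at Rhbdf2 and 0.093 at Furin. Of the marker regions named above, Pax5 (0.11), S100a8 (0.91), Itgam (0.13), Lck (0.26) and both Irf4 regions (0.20 and 0.30) were not called by ranks either.

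A profile was the centred height of a region in the 6 libraries minus its mean over them, so shape was compared and not height. The profiles most like those of the members, with the smallest root mean square difference, were sought among the start regions of 11608 protein-coding genes. For Tnf these were Nedd9, Vrk1 and Sass6, with 0.025, 0.025 and 0.027 log2 units, beside a median of 0.24 over all genes. For Ltb they were Numa1 (0.024) and the shared start region of Gm38431 and Raver1 (0.026), beside a median of 0.26. For the BAFF receptor they were Kcnj1, Bfsp2 and H2-DMb2 (0.10 to 0.12), beside 1.06, and for the intronic TACI region Trim68 and the shared start region of Fkbp7 and Plekha3 (0.092 and 0.11), beside 0.78. H2-DMb2 belongs to the antigen presentation genes that B cells use.

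A few regions lay just outside the windows and are given as values only. A region at −3729 bp from the Tnfrsf13b start had a pileup of 17 and 18 in control 1 and 2, none in control 3, and 64, 56 and 56 in HADA. A region 2729 bp past the 3′ end of Tnfrsf13c had 56, 48 and 14 in control and 175, 154 and 179 in HADA. A region at −4992 bp from the Lta start had 76, 76 and 41 in control and 153, 158 and 127 in HADA. A region at −6067 bp from the Ltb start, which spans the 5′ end of the neighbour Lst1, had 78, 64 and 80 in control and no called peak in HADA. A region 646 bp past the 3′ end of Tnfsf13 had 128, 98 and 96 in control and 184, 147 and 165 in HADA. On the centred scale the last of these had a log2 difference of 0.01 ± 0.16 (SE), the one upstream of Lta 0.60 ± 0.23 and the one past Tnfrsf13c 1.67 ± 0.41.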

How the data were processed

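ATAC-seq libraries of blood leukocytes from 3 control and 3 HADA samples were analysed as peak lists. Per the labels and the methods of the study, the authors checked reads with FastQC, trimmed them with Trimmomatic, aligned them with Bowtie2 to GRCm39, used Picard for duplicate removal and MACS2 for the peaks of each library by itself. Versions, options and any shift for the Tn5 cut were not given in the sources used here. The deposited values of a peak are its fold over local background (a ratio), its −log10 p-value, its −log10 q-value and a score. No read totals were used, so the background pileup stands for depth.

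Pileup and local background at each summit were solved from fold and p-value. Peaks overlapping by at least 1 bp were merged into regions. Heights, log2(pileup + 1) centred on the library median, were compared with limma 3.58.1 in R 4.3.3 (Benjamini-Hochberg, threshold 0.05). Fold ranks, other scalings, filters, a replicate block and leaving out libraries were alternatives. The fill of absent peaks at the limit of the nearest peak was chosen after seeing the data. Ratios and peak numbers used exact permutation tests. Genes came from GENCODE M39.

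All 9 genes were named, from each list at most the 3 called regions with the largest absolute difference, and, for Tnf, Ltb and each BAFF receptor with a region at an annotated start in all libraries, the 3 genes with the most similar start region. Members and lists were chosen with earlier results of these data known.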

Additional observations from a re-analysis of the deposited data

How the results depend on the processing

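The 2 higher and 2 lower member regions were recounted under each alternative. Higher regions numbered 0 with ranks of the authors' fold (2 at an unadjusted p under 0.05) and 3 with division by library background. They numbered 0 with peaks of −log10 q of at least 10 (5 regions tested, 1 unadjusted) and 1 with summits grouped within 250 bp (6 tested). At the stricter q the Tnfrsf13c and Tnfrsf13b regions were not tested, since their control 3 peaks fell short (−log10 q of 3.36 and 2.99). With grouped summits Tnfrsf13b was not tested, and Tnfrsf13c kept its call (1.71, limma, adjusted p = 0.027). Absent peaks filled in, some groups wholly so, gave 7 at the lowest called pileup and 5 at the limit of the nearest peak. Lower regions numbered 0 with division by library background (0 also at an unadjusted p under 0.05), 0 with fold ranks (1 unadjusted), and 5 with either fill. Leaving out 1 library gave 0 to 4 higher and 0 to 2 lower regions. Without control 3 there were 4 higher of 10 tested, with the Lta region and the third TACI region newly tested. The difference at Tnfrsf13c was then 1.07 and that at the intronic Tnfrsf13b region of the main fit 0.76. Without HADA 1, HADA 2 or HADA 3 there were 0 higher by limma, and 2 at an unadjusted p under 0.05 in each case. Over all regions these 3 fits called 1046 to 2020 higher and 2541 to 4065 lower, against 4318 and 5853. Ranks of fold called 1574 and 1147, and at an unadjusted p under 0.05 they gave 4842 and 3696. Division by background called 7454 and 4427, and the fills 9879 and 10115, and 7981 and 9976. The cause of these shifts was not tested.

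The tallest Tnfrsf1b region turned to 0.0583 under fold ranks (adjusted p = 0.78). Regions in every HADA and no control library numbered 4 at the stricter q (4301 against 4405 over all regions). Regions in every control and no HADA library numbered 2 at the stricter q, 2 with equal numbers of strongest peaks, 2 with grouped summits (793, 2264 and 1227 against 1181 over all regions), and 1 to 2 without 1 library. The difference in peaks per 10000 turned to 0.194 at the stricter q and 0.490 with equal numbers of peaks, was −0.328 with only summits near a start (10, 9 and 9 peaks in control, 9, 9 and 10 in HADA), and ran from −0.291 to 0.041 without 1 library. The log2 ratios among Ltb, Tnf and Lta kept their direction under every alternative run.

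Libraries with the same replicate number did not deviate together (r = −0.080, 0.083 and −0.381 across regions). The other pairs ranged from −0.481 to 0.493. These values show no pairing by number, and with 3 libraries per group they cannot exclude one. With the replicate number as a block, 2 member regions were higher and 0 lower (2 unadjusted), and 3056 and 5771 of all regions. A missing peak limits what can be said: it bounds the height at the calling limit and shows no absence of open chromatin.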
